A study of Drosophila melanogaster with 4 samples.

Results

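The peaks described here are the sites on 2L, the left arm of the second chromosome, in a ChIP-seq experiment on the tagged transcription factor Eip74EF-GFP in Drosophila melanogaster embryos. They were taken from the single deposited list of 1929 peaks by position alone: all peaks on 2L were kept except the 84 that lie wholly between 21416574 and 21543306, a densely packed stretch of 127 kb near the centromeric end. This left 281 peaks, all of which are counted below. The 2 peaks on the separate heterochromatic sequence 2LHet were not included. Coordinates are those of FlyBase release 5.

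The series holds 4 libraries from whole embryos aged 8 to 16 h, 2 of them chromatin precipitated with a rabbit polyclonal antibody against GFP (ab290) and 2 of them input DNA, which was not precipitated. Both groups carry the same strain, Eip74EF-GFP, with the genotype PBac{y[+]-attP-3B}VK00037 and, as transgene, the Eip74EF genomic coding region. The collection protocol in the labels names y; bw cn sp flies. VK00037 is a docking site for transgenes that itself lies on 2L, and its position is not given in the sources used here. Neither do the labels say whether the untagged Eip74EF gene was intact, or which tissues carried the tagged protein, so the peaks stand for a mixture of all cells of the embryo. Neither embryos without the tag nor a precipitation without antibody were analysed here, so enrichment through the tagged protein and enrichment unrelated to it cannot be told apart.

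Eip74EF is one of the classical early genes that the steroid hormone ecdysone switches on, first seen as a puff of the salivary gland chromosomes. Its proteins share an ETS domain, a DNA-binding fold that recognises sites with a GGA core, and they act on later genes of the hormone cascade. In embryos a pulse of ecdysone falls in mid-embryogenesis. These are facts of background, and the peak list holds neither gene names nor sequence. The genes and the DNA at each peak were not analysed here.

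Each peak has 1 score, given by the authors, on a scale that the sources used here do not state. It serves below to rank and describe peaks within the list. Ratios of scores, sums of scores and scores per base are taken on the numbers as deposited. They would differ if the score were put on another scale, such as a log scale, so only the ranks are free of this limit. The list gives no value for any one library. There is therefore no replicate error, the sequencing depth is unknown, and no test was made. Differences between groups of peaks are given as descriptions.

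The 281 peaks were spread over nearly the whole arm, from 66428 to 22961924, at 12.3 peaks per Mb of span without the left-out stretch. They covered 141 kb, or 0.621% of that span. The lowest score was 6.79 and the highest 256.57, and the median of 16.63 lay between quartiles of 11.24 and 33.86. Of the 281, 90 peaks (32.0%) fell in the lowest of 4 equal score classes of the whole list, at or under 12.3, and 73 (26.0%) in the highest class, above 33.04. Only 16 peaks passed a score of 100. In width they had a median of 389 bp, with quartiles of 276 and 603 bp. The narrowest peaks measured 201 bp, which was also the smallest width anywhere in the list and was shared by 4 peaks on 2L.

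Score and width went together on 2L. Spearman's rho between them was 0.78 across the 281 peaks, as a description, since both values belong to the same peak calls. None of the 89 peaks under 300 bp reached the highest class, and the best of them scored 21.15. Of the 94 peaks from 300 bp to under 500 bp, 12 did so. Of the 76 peaks from 500 bp to under 1000 bp, 41 did so, and so did 20 of the 22 peaks of 1000 bp or more. The median scores of these 4 width classes were 10.98, 15.18, 34.83 and 77.62.

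Some peaks departed from that relation. The peak at 16049599 to 16050030 was only 432 bp wide and scored 152.15, the highest score per base on the arm at 35.2 per 100 bp. Next came the peak at 3108092 to 3108685 with 25.7 per 100 bp and the peak at 5985884 to 5986517 with 24.0 per 100 bp. These last 2 were 594 and 634 bp wide, above the median width of the arm. The opposite was seen at 2177534 to 2178687, where a peak 1154 bp wide scored 15.64, and at 7828017 to 7829574, where 1558 bp went with a score of 25.10.

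**Figure D1:**
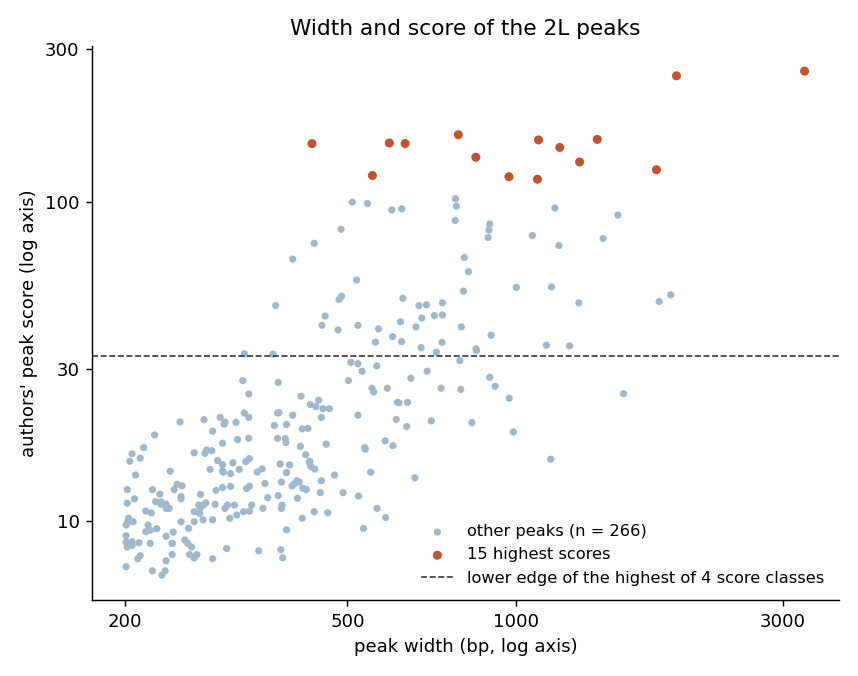
Each point is 1 of the 281 peaks on 2L, with its width in bp and the authors' peak score, both on log axes; the 15 highest scores are in orange and the dashed line marks a score of 33.04, above which lies the highest of 4 equal score classes of the whole list. Scores rise with width, and the 15 strongest peaks range from 432 bp to 3282 bp.

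The strongest site on the arm was a compact group of peaks near 5 Mb. It consisted of 4 peaks that followed each other between 4996716 and 5004811. In order along the arm they scored 248.06, 8.31, 256.57 and 156.88, and their widths were 1937, 202, 3282 and 1398 bp. The gaps between them were 865, 61 and 351 bp, so that the peaks together covered 84.2% of the 8.10 kb. Its 3 strong members held ranks 1, 2 and 4 on 2L and ranks 5, 6 and 20 in the list of 1929. The weak member of 202 bp lay in a break of the enriched stretch, and gaps this short leave the number of separate sites undecided. The next peak beyond the group, at 5092789 to 5093568, was a single one with a score of 102.21 and followed after 88.0 kb without a peak. On the other side the nearest peak was 159 kb away.

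The other 12 of the 15 strongest peaks were single peaks or members of pairs. The score at rank 3, 162.25, belonged to the peak at 8477748 to 8478536, which had no other peak within 10 kb on either side. Further towards the telomere, a peak at 3094317 to 3095414 scored 156.30. It was followed after 12.0 kb by a pair at 3107428 to 3108685 in which a weak peak of 9.48 preceded one of 152.84. This placed a pair of strong sites within 15 kb of each other. The peak at 5985884 to 5986517 scored 152.24 and had a companion 4.92 kb away with a score of 8.74.

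Between 6 and 11 Mb lay 5 further peaks of this group. The peaks at 6323709 to 6324680 and 6455213 to 6456512 scored 119.88 and 133.30 and were neighbours, separated by 131 kb without any peak. The peak at 10298194 to 10299286 scored 117.72. The peak at 10339172 to 10339725 scored 120.91, and its partner 3.91 kb before it scored 48.30. At 10964070 to 10964917 the score was 137.91, with a weak neighbour of 9.97 after 2.76 kb.

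On the centromeric side of the midpoint of the span lay 3 of the 15. They were the 432 bp peak at 16049599 already named, the peak at 15060646 to 15061843 with a score of 148.04, and the peak at 19790434 to 19792217 with a score of 126.06 and a width of 1784 bp. The last of these was the most secluded of the 15, with 203 kb free of peaks before it and 293 kb after it. The next peak in rank, just outside the 15, scored 102.21 against 117.72 for the last one inside. The 15 peaks held 26.7% of the summed score of the 281. Their median width was 1093 bp, 8 of them were 1 kb or wider, and 6 of them were among the 15 widest on the arm.

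Among the 5 widest peaks, 2 belonged to the group near 5 Mb and 1 was the peak at 19790434. The other 2 formed a pair of their own at 19570976 to 19572779 and 19575199 to 19577090. These were 1804 and 1892 bp wide, 2.42 kb apart, and scored 48.76 and 51.13. They were thus nearly equal in width and in score, and broad for their score. The 8 narrowest peaks measured 201 to 202 bp and scored between 7.21 and 12.57.

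Counted within 250 kb, peaks of the highest class were most numerous between 10298194 and 10507207. This place was chosen by that count, after its values were seen. That length of 209 kb held 7 peaks, of which 6 were in the highest class and 5 scored above 80. In order, the 7 scores were 117.72, 48.30, 120.91, 85.25, 96.92, 11.50 and 82.05. Unlike the group near 5 Mb, neighbouring peaks here were separated by up to 67.3 kb. Over the arm, the midpoints of neighbouring peaks of the highest class were a median of 213 kb apart. The longest distance between them was 2102 kb, from the peak at 16049599 to the one at 18150991.

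Peaks were then joined into runs wherever the gap between them was 10 kb or less. The 281 peaks formed 185 runs. Of these, 122 were single peaks, 45 were pairs, 9 held 3 peaks, 4 held 4 and 5 held 5 or 6. Together 159 peaks (56.6%) shared a run with at least 1 other peak, and 69 (24.6%) lay in runs of 3 or more. Part of this comes from very short gaps: of the 279 gaps between neighbours, 96 were 10 kb or less, 43 were 1 kb or less and 14 were 200 bp or less, the shortest being 57 bp. Whether such close calls are separate sites or 1 broken call cannot be told apart from the list.

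**Figure D2:**
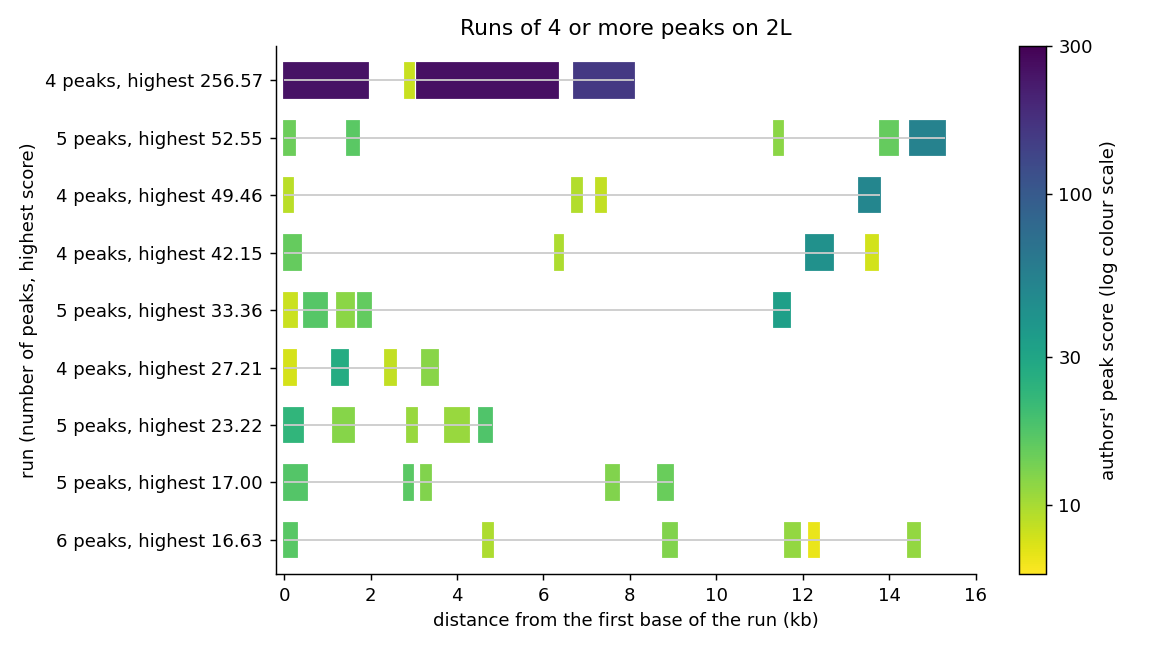
Each line is 1 of the 9 runs with 4 or more peaks, drawn by distance in kb from its first base, with a box for each peak to scale and the authors' peak score as colour on a log scale. The run with the highest score, 256.57, is nearly filled by 3 strong peaks, whereas the other 8 runs have highest scores from 16.63 to 52.55.

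The runs with most peaks were made mostly of weak peaks. Of the 26 peaks in runs of 5 or 6, 2 (7.69%) were in the highest class, against 26.0% of all 281. The run of 6, at 16521370 to 16536076, extended over 14.7 kb with scores of 16.63, 9.73, 12.66, 11.24, 6.79 and 11.24, and included the lowest score on the arm. The run of 5 at 12003758 to 12012759 had scores of 17.00, 16.27, 12.57, 12.50 and 14.60. A shorter run of 5, at 15908857 to 15913666, packed scores of 23.22, 12.30, 10.98, 10.98 and 17.55 into 4.81 kb, of which the peaks covered 42.0%. No peak of these 3 runs reached the highest class.

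The other 2 runs of 5 each held 1 stronger peak, at their centromeric end. The run at 479192 to 490901 began with 4 peaks between 479192 and 481208 that scored 8.22, 16.82, 11.80 and 15.25, and ended after a space of 9.33 kb with a peak of 33.36. The run at 18136505 to 18151796, 15.3 kb long, had scores of 14.35, 16.39, 11.76, 15.23 and 52.55. In all 5 of these runs the highest score was at one end of the run, the telomeric end in 3 and the centromeric end in 2. The same held in 6 of the 9 runs of 3 but in only 1 of the 4 runs of 4. Of the 18 runs of 3 or more, 12 had their highest score at an end. Short runs have few inner places, a run of 3 only 1, so the highest score can often fall at an end by chance. How often it would do so in random order was not computed, and no preference for the ends is drawn from these counts.

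Runs of 4, apart from the group near 5 Mb, each held 1 stronger peak among weaker ones. At 1636636 to 1650371 the scores were 15.12, 9.74, 42.15 and 7.87. At 2751846 to 2755411, within 3.57 kb, they were 7.68, 27.21, 8.53 and 12.03. At 19416940 to 19430723 they were 9.01, 9.38, 8.57 and 49.46. In each of them 1 peak scored more than 2 times the next, the ratio being 2.79, 2.26 and 5.27 in that order, while in the group near 5 Mb the ratio of the highest to the second score was 1.03.

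Pairs ranged from nearly equal to very unequal. In the 45 pairs the stronger peak scored a median of 1.76 times the weaker (quartiles 1.12 and 2.75). This ratio has the stronger peak on top by definition, and peaks that are not neighbours were not compared in this way. The ratio was under 1.5 in 18 pairs and over 3 in 9. The stronger peak came first along the arm in 23 pairs and second in 22. The 3 most unequal pairs all contained one of the 15 strongest peaks, with ratios of 17.4 at 5980707 to 5986517, 16.1 at 3107428 to 3108685 and 13.8 at 10964070 to 10967939. In 3 pairs both peaks were in the highest class. Besides the pair of broad peaks at 19570976 to 19577090 and the pair at 10334525 to 10339725, this was the pair at 18702971 to 18708982, whose scores of 94.33 and 98.79 were almost the same.

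Single peaks had a higher median score than peaks in runs. The 122 single peaks had a median score of 21.00 (quartiles 12.57 and 40.95) and the 159 peaks in runs a median of 14.25 (10.72 and 26.84). Their median widths were 429 and 368 bp. Of the single peaks 41 (33.6%) were in the highest class, and of the peaks in runs 32 (20.1%) were. The ranges overlapped almost entirely, from 7.00 to 162.25 for single peaks and from 6.79 to 256.57 in runs. Counted by run rather than by peak, the order was the other way: 26 of the 63 runs of 2 or more (41.3%) held a peak of the highest class, against the 33.6% of single peaks, and the median of the highest score per run was 27.21. A run has several peaks from which its highest is taken, so the values by run and by single peak are not on equal terms. By size of run the median of the highest score was 25.88 for pairs, 36.33 for runs of 3, 45.81 for runs of 4 and 23.22 for runs of 5 or 6. Among the 15 strongest peaks, 7 were single.

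**Figure D3:**
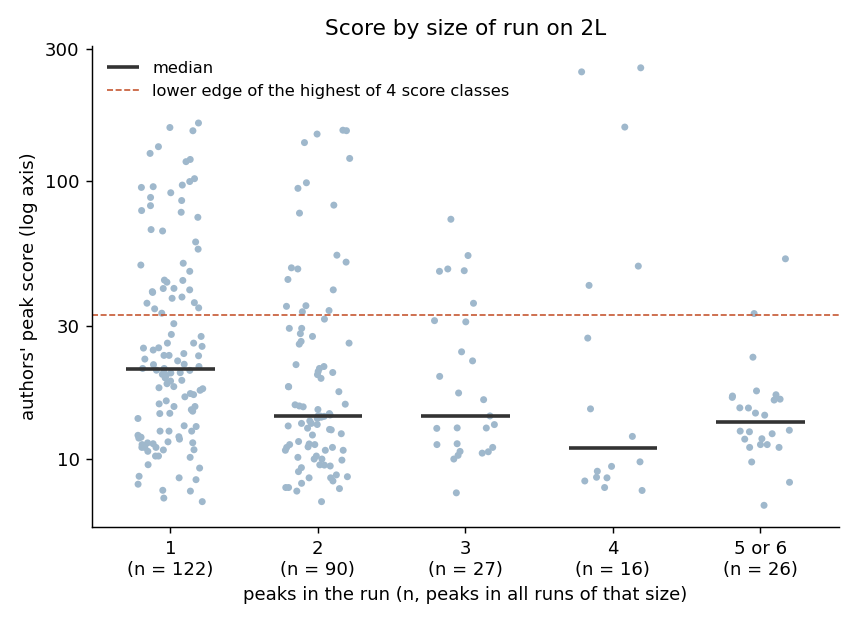
Each point is a peak on 2L, placed by the number of peaks in its run (gaps of 10 kb or less joined) and by the authors' peak score on a log axis; bars are medians and the dashed line marks 33.04. The median is 21.00 for single peaks and between 10.89 and 14.26 in the larger classes, and the scores of all classes overlap.

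The gaps between neighbouring peaks were very uneven. Their median was 28.9 kb, with quartiles of 4.56 and 113 kb, leaving out the stretch across the 84 peaks. There were 77 gaps longer than 100 kb, and these made up 77.8% of the span. The 7 gaps longer than 500 kb made up 18.2% of it.

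All of the 5 longest gaps lay between 14495443 and 18702970. The longest, 684 kb, reached from 15061844 to 15745732. It began at the strong peak of 148.04 and ended at a weak one of 7.64. Just before that strong peak and its weak companion lay a gap of 562 kb, from 14495443 to 15057154. The pair at 15057155 to 15061843 thus stood alone in 1.25 Mb.

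The next 2 gaps in length adjoined each other. They measured 663 kb (17473035 to 18136504) and 645 kb (16827514 to 17472511), and between them lay 1 peak, at 17472512 to 17473034, with a score of 12.00 and a width of 523 bp. A stretch of 1.31 Mb therefore held 1 weak peak. It was followed by the run of 5 at 18136505 to 18151796 and by another gap of 551 kb, from 18151797 to 18702970, after which came the pair of nearly equal strong peaks. The run of 5 thus stood alone in 1.23 Mb. From 16827514 to 18702970 the arm thus alternated between long empty stretches and a few isolated places with peaks. The part from 15745733 to 16827513, which also lies among the 5 longest gaps, was not empty. The Mb from 16 to 17 Mb alone held 19 peaks.

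Counted in bins of 1 Mb, numbered from the telomere, the arm had between 1 and 19 peaks per bin, with a median of 12. The richest bins were the first and the seventeenth, with 19 peaks each, and the seventh and the last, with 18 each. The first and the last bin were cut to the span, and bin 22 lost the left-out stretch, so these were shorter. Per Mb of length used, bin 1 had 20.4 peaks, bin 22 had 19.5, bin 17 had 19.0, bin 23 had 18.7 and bin 7 had 18.0. The poorest were bin 18 with 1 peak, bin 15 with 6 and bin 10 with 7. Bin 17, with 19 peaks and 1 of them in the highest class, directly preceded bin 18. Peaks of the highest class occurred in 21 of the 23 bins, the exceptions being bins 15 and 18. Of the 6 peaks in bin 15, all lay in pairs and none scored above 19.48.

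A high number of peaks and strong peaks did not always go together. Bin 11 had 8 peaks of the highest class among 16, and its median score of 30.92 was the highest of any bin. Bin 5 had 4 among 8, with a median of 25.97. Bin 1, with 19 peaks, had 4 of the highest class and a median of 15.25. Bin 17 had a median of 13.96, and its highest score was the 152.15 of the 432 bp peak at 16049599. The bins with a peak above 100 numbered 9 of 23. Across the 23 bins, Spearman's rho was 0.42 between the number of peaks and the number of peaks of the highest class, as a description, since the first count contains the second.

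**Figure D4:**
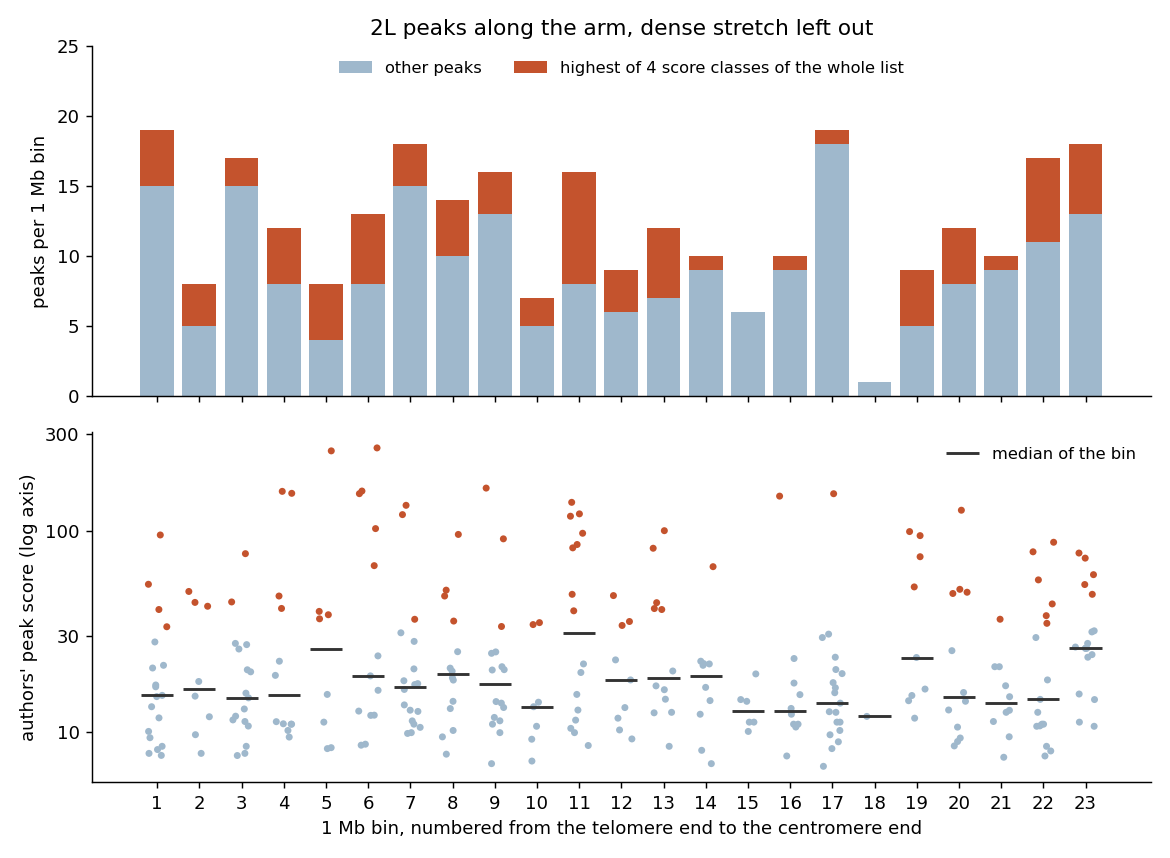
The upper panel gives the number of peaks on 2L in each 1 Mb bin, numbered from the telomere end, with the peaks of the highest score class of the list in orange; the lower panel gives the authors' score of every peak on a log axis, with the median of each bin as a bar. Bin 18 holds 1 peak, bins 1 and 17 hold 19, and bin 11 has the most peaks of the highest class, 8 of 16.

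There was no steady trend along the arm in score (Spearman's rho with position of 0.05) or in width (rho of 0.02). Divided into 4 equal stretches from the telomere to the centromere, the arm held 72, 80, 62 and 67 peaks, or 12.6, 14.0, 10.8 and 12.0 per Mb. The median scores were 15.90, 18.09, 14.57 and 21.15 in that order. The third stretch, from 11514177 to 17238050, had 10 of the highest class (16.1%), while the other stretches had 20, 23 and 20. Of all 281 peaks, 152 lay on the telomeric side of the midpoint and 129 on the centromeric side. Of the 15 strongest, 12 lay on the telomeric side and 3 on the centromeric side, with 5, 7, 2 and 1 in the 4 stretches. These placements are not all separate, since 3 of the 12 are close calls of the group near 5 Mb. The stretch nearest the centromere therefore had the highest median score and the fewest of the 15 strongest peaks. On the telomeric side of the midpoint there were 13.3 peaks per Mb and on the centromeric side 11.4, a ratio of 1.17 with an exact binomial 95% interval of 0.915 to 1.49, which covers counting error only and takes peaks as independent.

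The arm beyond the left-out stretch, towards the centromere, held wider peaks with a higher median score. The 27 peaks between 21559453 and 22961924 had a median score of 26.47 (quartiles 15.02 and 51.15) and a median width of 614 bp (382 and 858 bp). The 254 peaks on the telomeric side had a median score of 15.74 (11.24 and 32.81) and a median width of 381 bp (270 and 565 bp). Of the 27, 19 (70.4%) were 500 bp or wider, against 79 of the 254 (31.1%). Peaks of the lowest class were fewer, 5 of 27 (18.5%) against 85 of 254 (33.5%). The highest score of the 27 was 87.47, a value that 23 of the 254 exceeded. A maximum taken over 27 peaks and the scores of 254 peaks are not on equal terms. The density was 19.0 against 11.9 per Mb. The shares with another peak within 10 kb were close, 51.9% and 56.7%. These differences were not tested, since the peaks are neighbours in 1 list with no replicates.

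The strongest of these 27 peaks were at 21757290 to 21758068 (score 87.47), 21657897 to 21658966 (78.44) and 22736131 to 22737022 (77.34). In the run of 3 at 22120778 to 22131571 the scores were 72.98, 48.30 and 11.24, and in the run of 3 at 22239081 to 22249939 they were 54.00, 24.28 and 31.45. A score of exactly 26.10 occurred 3 times on 2L, all in the last bin, and 7 times in the whole list. Repeated scores were common elsewhere too: 84 of the 281 peaks shared their score with another peak on the arm, the most frequent being 10.98 with 8 peaks. Only 6 of these 84 lay in the highest class.

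**Figure D5:**
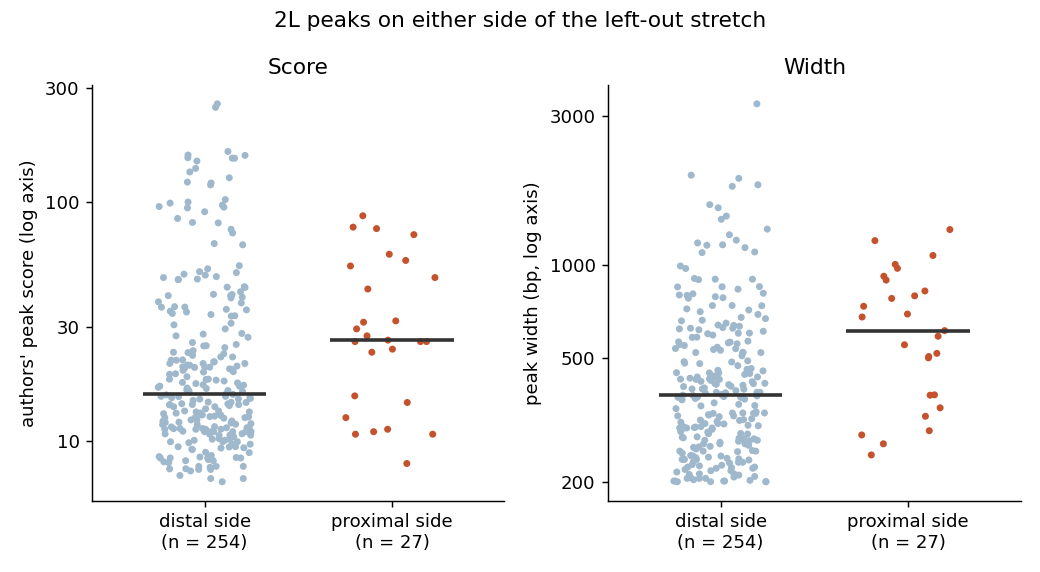
Each point is a peak on 2L, on the telomeric (distal, n = 254) or the centromeric (proximal, n = 27) side of the left-out stretch, with the authors' peak score on the left and the width in bp on the right, both on log axes; bars are medians. The proximal peaks have the higher medians (26.47 against 15.74 in score, 614 against 381 bp in width). The highest scores and widths are on the distal side, which holds many more peaks.

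At the border of the left-out stretch, the last peak kept on the telomeric side was at 21405687 to 21405904, with a score of 10.77 and a width of 218 bp. It was 10.7 kb away from the first peak left out, which scored 21.51 and was 609 bp wide. The last peak left out scored 20.38 and was 431 bp wide. The first one kept after it, at 21559453 to 21559833, followed after 16.1 kb with a score of 10.98 and a width of 381 bp. The 84 peaks, which are set apart by the rule for their dense spacing, had a median score of 17.09 and a median width of 401 bp. These values lay near the 15.74 and 381 bp of the peaks on the telomeric side and below the 26.47 and 614 bp of those on the centromeric side.

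The same summaries were made for 3L, 3R and X, to give the scale of the values on 2L. Median scores were 16.63 on 2L, 17.40 on 3L, 16.94 on 3R and 21.66 on X, and median widths were 389, 391, 388 and 483 bp. The longest gap on 2L, 684 kb, compared with 920 kb on 3L, 675 kb on 3R and 831 kb on X. On 2L 63 runs held 2 or more peaks and 18 held 3 or more, whereas 3L, with 272 peaks, had 48 and 22. Peaks in runs of 3 or more made up 24.6% on 2L, 32.7% on 3L, 29.0% on 3R and 21.5% on X. The largest run had 6 peaks on 2L, 9 on 3L, 10 on 3R and 5 on X. These values for runs are not on equal terms. The 84 peaks left out on 2L form a run of their own by the same rule, the largest on the arm, whereas no peaks were left out on 3L, 3R or X. Arm 2R was not summarised here. Wide peaks of 1 kb or more made up 7.83% on 2L and 5.88% on 3L, 5.91% on 3R and 7.48% on X. No test was made between arms, and no difference between them is drawn from these values.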

How the data were processed

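The authors deposited 1 list of peaks for the series, with a start, an end and 1 peak score each. FlyBase release 5 is the genome and MACS the source of the calls, per the file headers. The tools named are MACS2, BWA and CASAVA, versions 1.7.0.2 and 1.7.0.3, and the build is BDGP5, per the submitters' processing notes. What threshold was set, what scale the deposited score has, and whether replicates were pooled is not given in the sources used here. A threshold sets how many weak peaks are listed, and splitting of broad enrichment sets how many close neighbours there are.

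From this list, peaks were chosen by position (Python 3.11.15, pandas 2.3.3, scipy 1.17.1). Gaps are the bases between neighbouring peaks. Runs join gaps of at most 10 kb. A peak has a neighbour where midpoints lie within 10 kb. Bins are 1 Mb, assigned by midpoint. Score classes are 4 equal parts of the whole list. The interval functions were tested on simulated data. The members, limits and summaries were chosen with earlier results of these data known. Positions named by rule are the 15 highest scores, the 5 widest peaks, runs of 5 or more, runs with a peak among the 15, the 5 longest gaps, the 3 richest and poorest bins with ties, and the border peaks. Runs of 3 and 4, the other pairs and single peaks, and bins 5, 11 and 22 were named after their values were seen. The gene table at hand follows release 6, so planned motif and gene annotation were not run.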

Additional observations from a re-analysis of the deposited data

How the results depend on the processing

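In all 24 alternatives were computed. The share of peaks with another within 10 kb, 56.2% (exact binomial 95% interval 50.2 to 62.1%), was 42.3% within 5 kb, 67.3% within 20 kb, 38.7% with peaks within 1 kb merged, 21.4% in a stricter set of 131 peaks (score at least the median of the whole list), and 66.3% with the dense stretch kept in. The interval of this share covers counting error only and takes peaks as independent. They are not, since the neighbour of a peak has a neighbour in turn. The 18 runs of 3 or more became 10 with a gap of 5 kb, 32 with 20 kb, 7 after merging and 2 in the stricter set. The stricter set also gave 5.75 peaks per Mb, a median score of 35.60, a median width of 618 bp and a longest gap of 1323 kb (16827514 to 18150990), since weak peaks leave it. Merging, which left 238 peaks, gave a median width of 451 bp. The ratio of peaks per Mb on the telomeric to the centromeric side of the midpoint, 1.17, turned to 0.714 with the dense stretch kept in, whose 84 peaks all lie on the centromeric side, and was 1.17 after merging and 1.28 in the stricter set. By the limits set for each kind of value, 9 of the 24 did not move. The limit was the exact binomial 95% interval for the share, the ratio and the medians, a factor of 1.5 for counts and density, and any change for the longest gap. The intervals of the medians also take neighbouring peaks as independent, so these limits only sort the alternatives and test nothing. Among the 9 were these last 2 ratios and the number of peaks of the highest class (70 and 71 against 73). No paired analysis was possible because peaks carry 1 score each and none per library. Leaving out a replicate could not be done either, and depth is unknown.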
